A study of Mus musculus with 22 samples.

Results

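Genes of steroid and sterol turnover were followed in the fetal epithelium from which the prostate grows, with and without Sox9. Cyp27a1, a sterol hydroxylase, was lower in male knockouts than in male controls, a result that did not hold up against the loss of single arrays. Cyp27a1 was also higher in males than in females, a result that held without each array in turn in controls but not in knockouts. Hsd17b2, which inactivates sex steroids, varied with markers of bladder epithelium. The 10 genes followed are the steroid reductase family members Srd5a1, Srd5a2 and Srd5a3, the dehydrogenases Hsd17b2, Hsd17b4, Hsd17b11, Hsd11b1 and Hsd11b2, and the hydroxylases Cyp27a1 and Cyp7b1. A gene was read from the probe set that carries its symbol and no other in the platform's annotation, and from the one with the highest mean over all arrays where there were several. Of the 10 genes, 8 had such a probe set, 1 each, and 7 of these passed the filter on dim probe sets, among 19050 genes tested in all. Srd5a1 and Srd5a2 were not analysed here.

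The samples were urogenital sinus epithelium of C57BL/6J mouse fetuses at E16.75 (embryonic day), on 22 Affymetrix whole-transcript arrays. Knockout fetuses (ShhCre/+; Sox9fl/fl) were represented by 6 male and 5 female arrays, and littermate controls (Shh+/+; Sox9+/fl) by 6 male and 5 female arrays. Every group thus carried a floxed Sox9 allele, only the knockouts carried Cre, and the Cre insertion takes up 1 Shh allele, so that Sox9 loss, Cre and a lower Shh dose cannot be told apart. Replicates are named biological, with no word on single or pooled fetuses or on litters, so p-values measure the spread between these arrays, which may be in part technical. Sox9 was lower in the knockouts by 1.07 in males and 1.00 in females on the log2 scale and Shh by 0.45 and 0.56, without overlap of the arrays in either sex. The mean of 10 epithelial markers lay between 11.17 and 11.33 on all arrays, and that of 11 measured mesenchyme markers between 6.30 and 6.77, except in male control 6, at 7.48. Precision is limited by the number of arrays, with a median standard error (SE) over all genes of 0.06 for the knockout difference in males and 0.07 in females.

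Some of the steroids that reach a tissue from the circulation are turned there into stronger or weaker ligands before they meet a nuclear receptor. In the urogenital sinus, testosterone is reduced to dihydrotestosterone, the androgen that drives prostatic budding, while hydroxysteroid dehydrogenases switch androgens, oestrogens and glucocorticoids between active and inactive forms. Cytochrome P450 hydroxylases work on cholesterol and oxysterols, some of which are themselves ligands of nuclear receptors. All values below are log2 array values, or differences of them. A value of 1 probe set is not comparable with that of another, so levels were compared between groups only. A difference is called here where limma's moderated test, fitted to all 22 arrays, gave a p under 0.05 after Benjamini-Hochberg adjustment over the 19050 genes.

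**Figure D1:**
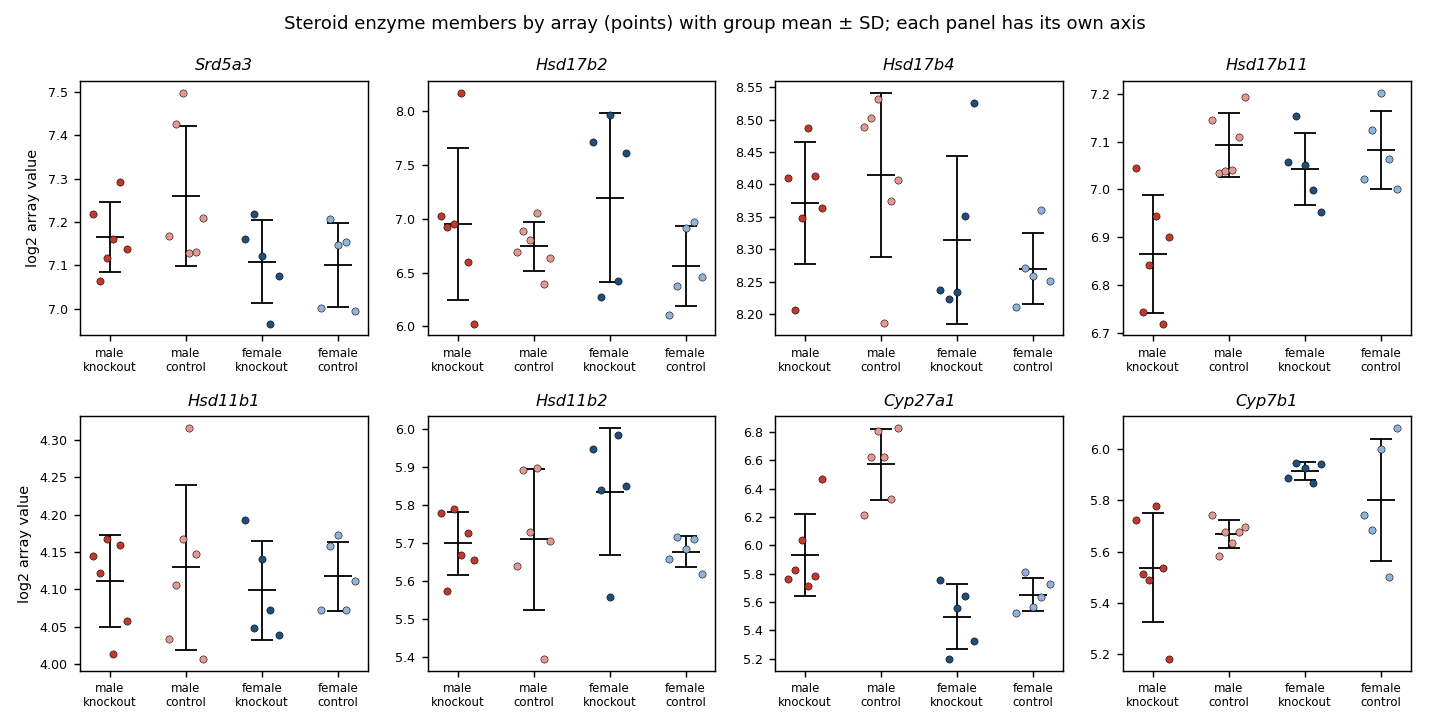
Log2 array values of the 8 measured genes on each array (points) with group mean ± SD (bars), one panel per gene with its own axis. Cyp27a1 is highest in male controls (6.21 to 6.83), and Hsd17b2 spreads most widely within the knockout groups.

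Cyp27a1 encodes the mitochondrial sterol hydroxylase that oxidises the side chain of cholesterol and makes an oxysterol ligand of the LXR receptors. Its probe set read 5.71 at the lowest, 5.80 at the median and 6.47 at the highest in the 6 male knockouts, against 6.21, 6.62 and 6.83 in the 6 male controls. Female knockouts 1 to 5 read 5.75, 5.20, 5.56, 5.65 and 5.32, against 5.52, 5.81, 5.57, 5.64 and 5.73 in female controls 1 to 5. Male knockout 6, at 6.47, was the single male knockout inside the range of the male controls. The other 5, at 6.04 or less, lay below all of them. Female knockouts and female controls overlapped. The groups ranked male control, male knockout, female control and female knockout, and the arrays of each pair of neighbours in this order overlapped.

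In males Cyp27a1 fell to 5.93 ± 0.29 in knockouts, against 6.57 ± 0.25 in controls (SD, n = 6 each), a log2 difference of -0.64 (SE 0.12, 1.56-fold lower, adjusted p = 0.0229). Lower RNA per cell and fewer cells that make the RNA cannot be told apart in such bulk samples. In females the means were 5.50 ± 0.23 in knockouts and 5.65 ± 0.12 in controls (n = 5 each), a difference of -0.16 with a 95% interval of -0.44 to 0.13 (adjusted p = 1). Averaged over the sexes the difference was -0.40 (SE 0.09, adjusted p = 0.0867). The male minus the female effect was -0.48 (SE 0.18, unadjusted p = 0.0157, adjusted p = 0.997), so the call in males alone does not show that the effect differs by sex. The male call did not hold up against the loss of single arrays. It was lost without any of 8 of the 12 male arrays, namely male knockouts 1, 2, 4 and 5 and male controls 2, 3, 4 and 6, and with only the male arrays in the fit (adjusted p = 0.13). Over all left-out male arrays the difference ran from -0.75 to -0.59 and the adjusted p from 0.00265 to 0.0865. Without male control 6, the array with raised mesenchyme markers and the highest Cyp27a1 value of its group, it was -0.59 (adjusted p = 0.0865), and with the mesenchyme mean as a covariate -0.61 (adjusted p = 0.0382).

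Between the sexes Cyp27a1 was higher in males. In knockouts the male arrays (5.71 to 6.47) overlapped with the female arrays (5.20 to 5.75), and the difference was 0.43 (SE 0.13, adjusted p = 0.0444). It was not called without any of 6 of the 11 knockout arrays (male knockouts 2, 3 and 6, female knockouts 2, 3 and 5). Nor was it called without the filter on dim probe sets (adjusted p = 0.0641) or with only the knockout arrays (adjusted p = 0.0922). The call was also lost with replicate number as a block (adjusted p = 0.0753) and with the urothelium mean as a covariate (adjusted p = 0.0762). In controls, the 6 male arrays (6.21 at least) all lay above the 5 female arrays (5.81 at most), with a difference of 0.92 (SE 0.13, 1.89-fold, adjusted p = 5e-05). That call held without each control array in turn, with differences of 0.87 to 0.99. Of the variance of Cyp27a1 over the 22 arrays, 52.3% lay between the sexes, 20.2% between the genotypes and 20.8% within groups. The deviations of Cyp27a1 from its group means had r = 0.0115 with those of the urothelium markers described below (n = 22, permutation p = 0.964, adjusted p = 0.996).

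The promoter of Cyp27a1 is shown beside that of Hsd17b11, which had the next smallest unadjusted p of the 7 genes in the male knockouts. Both are the 300 bases from 250 before to 50 after the transcription start in RefSeq's annotation of GRCm38.p6, read in the direction of the gene. Cyp27a1 lies at chr1:74713285-74713584 on the plus strand and Hsd17b11 at chr5:104021747-104022046 on the minus strand. Capitals mark each match to CCAAT, the box bound by NF-Y, on either strand (ATTGG is its complement).
Cyp27a1: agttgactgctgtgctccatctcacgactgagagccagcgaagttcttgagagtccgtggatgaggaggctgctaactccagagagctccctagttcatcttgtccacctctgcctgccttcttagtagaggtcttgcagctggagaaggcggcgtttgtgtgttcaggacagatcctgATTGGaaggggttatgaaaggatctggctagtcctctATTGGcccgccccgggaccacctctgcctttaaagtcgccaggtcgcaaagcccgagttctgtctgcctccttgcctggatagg
Hsd17b11: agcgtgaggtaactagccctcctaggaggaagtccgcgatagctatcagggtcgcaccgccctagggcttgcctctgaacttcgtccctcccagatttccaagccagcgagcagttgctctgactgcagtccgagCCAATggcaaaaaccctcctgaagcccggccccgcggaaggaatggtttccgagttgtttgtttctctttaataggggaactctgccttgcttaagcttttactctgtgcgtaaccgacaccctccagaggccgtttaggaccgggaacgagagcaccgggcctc
CCAAT occurred 2 times in Cyp27a1, from 71 and 34 bases before the start on the opposite strand, and 1 time in Hsd17b11, from 115 bases before the start on the gene's own strand. A match to CCAAT is found in 37.4% of the 32851 promoters of this length. Neither promoter holds AGAACA, a half-site bound by steroid receptors such as the glucocorticoid and progesterone receptors (19% of promoters), or AACAAT, a core bound by SOX proteins (10.7% of promoters), on either strand. The same 2 motifs were also absent from the promoters of Srd5a1, Srd5a2, Srd5a3 and Hsd11b1. No match says only that these letters are not in this window. The GC content was 55.3% for Cyp27a1 and 57% for Hsd17b11, against a median of 52.7% over all promoters, and the number of CpG dinucleotides 10 and 18, against a median of 7.

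Cyp7b1 encodes the hydroxylase that acts on oxysterols and on androgen metabolites that bind the oestrogen receptor beta. The probe set read 5.18 at the lowest, 5.53 at the median and 5.78 at the highest in male knockouts, against 5.58, 5.68 and 5.74 in male controls. Female knockouts 1 to 5 read 5.89, 5.95, 5.93, 5.87 and 5.94, and female controls 1 to 5 read 5.74, 5.68, 6.00, 5.50 and 6.08. All 5 female knockouts lay above all 6 male knockouts, and the genotypes overlapped in each sex. In knockouts Cyp7b1 was lower in males than in females, 5.54 ± 0.21 (n = 6) against 5.91 ± 0.04 (n = 5), a difference of -0.38 (SE 0.09, adjusted p = 0.0112) that stayed called under every alternative that tested it, with adjusted p between 0.00382 and 0.0425. In controls the difference was -0.13 (SE 0.09, adjusted p = 0.458), with overlapping arrays. Neither sex gave a call between genotypes: -0.13 in males (adjusted p = 0.892) and 0.11 in females (adjusted p = 1). The male minus the female effect was -0.24 (SE 0.13, adjusted p = 0.997), so the sex difference was not shown to depend on genotype. Cyp7b1 and Cyp27a1 thus differed between the sexes in opposite directions in knockouts.

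**Figure D2:**
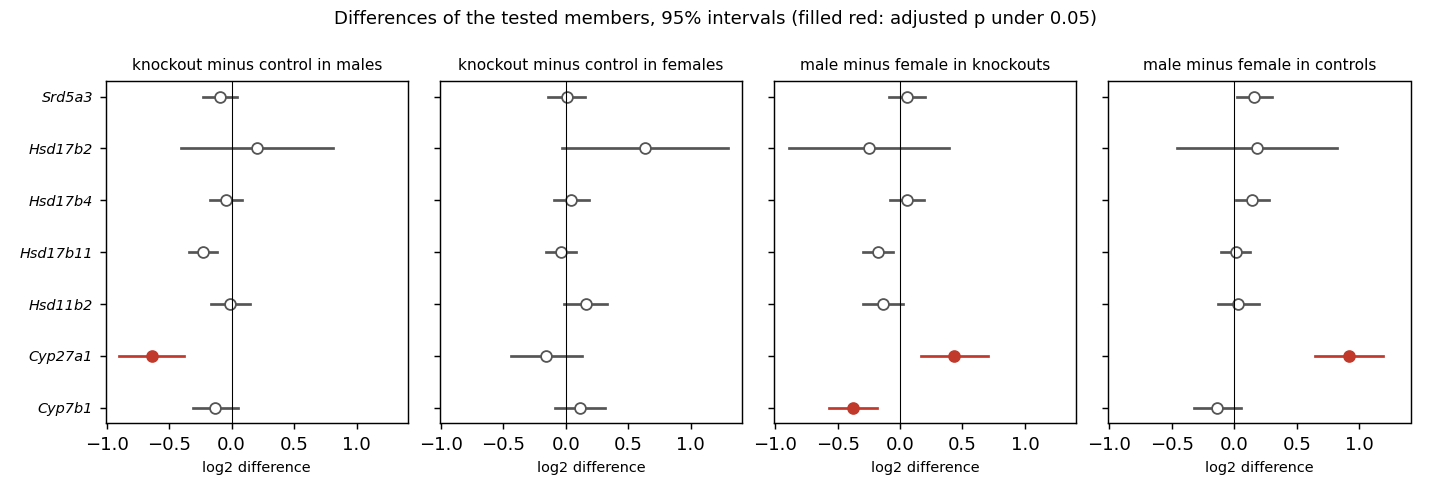
Log2 differences of the 7 tested genes with 95% intervals, one panel per comparison, filled red where the adjusted p was under 0.05. Cyp27a1 is called in 3 panels (-0.64, 0.43 and 0.92) and Cyp7b1 in 1 (-0.38), and the interval of Hsd17b2 is the widest in each panel.

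Counted over the comparisons, 1 of the 7 genes was called in male knockouts against male controls, where 0.199% of all genes were called. It was lower, as 0.178% of all genes were. The median difference of the 7 was -0.10, with 6 negative and 1 positive, against 0.01 over all genes. Of the 7, only Cyp27a1 and Hsd17b11 had an unadjusted p under 0.05 in males (6.27% of all genes). None of the 7 separated the male genotypes without overlap, as 0.42% of all genes did. Female knockouts gave 0 calls by limma against female controls (0.0315% of all genes), and 0 of the 7 had an unadjusted p under 0.05 (5.46% of all genes). Their median was 0.04 against 0.01 over all genes, and 0 of the 7 were without overlap (1.39% of all genes). The average over the sexes gave 0 calls by limma (0.247% of all genes), with 2 genes, Cyp27a1 and Hsd17b11, at an unadjusted p under 0.05 (7.19% of all genes). The male minus the female effect gave 0 calls by limma (0.00525% of all genes). There Cyp27a1 and Hsd17b11 had an unadjusted p under 0.05 (4.04% of all genes), and all 7 values were negative, from -0.48 to -0.09, against 9310 negative values among the 19050 genes. Between the sexes, 2 of the 7 were called in knockouts (7.19% of all genes) and 1 in controls (6.94%). In each genotype the male and female arrays of 1 of the 7 did not overlap, as was so for 5.82% of all genes in knockouts and 5.64% in controls.

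Hsd17b11 encodes a lipid droplet dehydrogenase that oxidises androgen metabolites. The probe set read 6.72 at the lowest, 6.87 at the median and 7.04 at the highest in male knockouts, against 7.03, 7.07 and 7.19 in male controls. Only male knockout 1, at 7.04, reached the range of the male controls. The difference of -0.23 (SE 0.05, unadjusted p = 0.000356) did not pass the adjusted threshold (adjusted p = 0.106), and did so without male knockout 1 (-0.26, adjusted p = 0.0268). Female knockouts 1 to 5 read 7.06, 7.15, 7.05, 7.00 and 6.95, and female controls 1 to 5 read 7.02, 7.12, 7.20, 7.06 and 7.00. These groups overlapped (-0.04, adjusted p = 1). In knockouts the male minus female difference was -0.18 (SE 0.06, adjusted p = 0.0619), which was called with array weights (adjusted p = 0.0241), with the stricter filter (adjusted p = 0.0442) and without male knockout 1 (adjusted p = 0.017). In controls it was 0.01 (adjusted p = 0.943). Genotype held 32.2% of the variance of this gene and sex 10.9%.

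Hsd17b2 encodes the dehydrogenase that oxidises testosterone and oestradiol to their weaker keto forms. It varied more within groups than any other of the 7 genes, with a within-group SD of 0.57, larger than that of 99.7% of all genes tested, whose median was 0.11. Male knockouts 1 to 6 read 7.02, 6.93, 6.95, 8.17, 6.60 and 6.03, and the 6 male controls read 6.40 at the lowest, 6.75 at the median and 7.06 at the highest. Female knockouts 1 to 5 read 7.71, 6.28, 7.97, 6.42 and 7.61, against 6.11, 6.37, 6.92, 6.97 and 6.46 in female controls 1 to 5. Above every control array lay 4 knockout arrays, male knockout 4 and female knockouts 1, 3 and 5. Male knockout 6 lay below every control array, and the remaining 6 knockout arrays lay among the controls. The genotype difference was 0.63 in females (SE 0.32, 95% interval -0.03 to 1.30, adjusted p = 0.924) and 0.20 in males (SE 0.29, adjusted p = 0.952), and 83.5% of the variance lay within groups.

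The same 4 arrays had the highest levels of urothelium markers, genes of the bladder lining such as the uroplakins. The mean of 8 measured urothelium markers of 9 listed was 10.18 in male knockout 4 and 10.24, 10.19 and 10.12 in female knockouts 1, 3 and 5, and at most 9.93 on the other 18 arrays. By group it ran from 9.38 to 10.18 in male knockouts, from 9.42 to 9.84 in male controls, from 9.57 to 10.24 in female knockouts and from 9.45 to 9.93 in female controls. Upk3a, a uroplakin, read 10.78 in male knockout 4 and 10.75, 10.52 and 10.68 in female knockouts 1, 3 and 5. The labels state that bladder and urethral epithelium had been removed. Over the 22 arrays, the deviations of Hsd17b2 from its group means followed those of the urothelium mean with Pearson's r = 0.916 and Spearman's rho = 0.907 (permutation within groups, p = 2e-05 for each). The adjusted p was 0.00126 over the 63 relations of 7 genes with 9 marker lists, and no other of the 63 passed 0.05. Without the 2 arrays farthest from the median, male knockout 4 and female knockout 2, r was 0.864. It was 0.864 in the 12 male arrays, 0.964 in the 10 female arrays, and 0.775 (permutation p = 0.0012) over the 18 arrays with a urothelium mean under 10.

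With the urothelium mean as a covariate, the Hsd17b2 difference between genotypes was 0.03 in females (SE 0.15) and 0.04 in males (SE 0.12). The male minus female difference in knockouts was 0.30 with the covariate (SE 0.14, adjusted p = 0.255) and -0.25 without it. The 8 tested urothelium markers were themselves positive in female knockouts against controls (median 0.25, lowest adjusted p = 0.783) and 0 were called. In males 7 were positive and 1 negative (median 0.07, lowest adjusted p = 0.893), and 0 were called. Of the 10 genes whose deviations correlated best with those of Hsd17b2, 4 were uroplakins: Upk2 (r = 0.909), Upk3a (0.89), Upk1a (0.865) and Upk3b (0.856). This ranking was added after the values had been seen. Whether Hsd17b2 RNA came from urothelial cells was not tested.

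**Figure D3:**
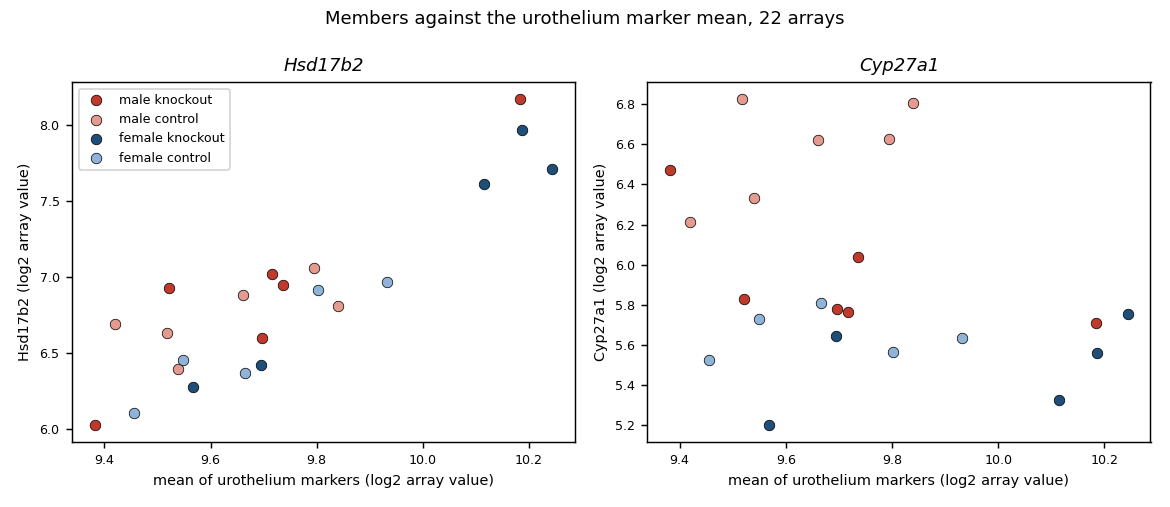
Log2 array values of Hsd17b2 (left) and Cyp27a1 (right) against the mean of 8 urothelium markers (log2 array value) on the 22 arrays, coloured by group. Hsd17b2 rises with the marker mean, with male knockout 4 and female knockouts 1, 3 and 5 at the upper right (r = 0.916 within groups), and for Cyp27a1 r within groups is 0.0115.

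The remaining genes moved little. Srd5a3 encodes a polyprenol reductase needed to make dolichol for protein glycosylation, with a reported activity on steroids. Its values ran from 7.07 to 7.29 in male knockouts, 7.13 to 7.50 in male controls, 6.97 to 7.22 in female knockouts and 6.99 to 7.21 in female controls. The genotype difference was -0.10 in males (adjusted p = 0.892) and 0.01 in females (adjusted p = 1), and the male minus female difference 0.06 in knockouts (adjusted p = 0.798) and 0.16 in controls (unadjusted p = 0.0288, adjusted p = 0.192). All 4 groups overlapped with each other.

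Hsd17b4 encodes the peroxisomal multifunctional enzyme, whose main work is the oxidation of very long and branched chain fatty acids and bile acid precursors. It ran from 8.21 to 8.49 in male knockouts, 8.19 to 8.53 in male controls, 8.22 to 8.53 in female knockouts and 8.21 to 8.36 in female controls. Its genotype differences were -0.04 in males (adjusted p = 0.949) and 0.04 in females (adjusted p = 1). The male minus female difference was 0.06 in knockouts (adjusted p = 0.783) and 0.14 in controls (adjusted p = 0.215), where it was called only without male control 4 (0.19, adjusted p = 0.0474). No pair of groups was separated.

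Hsd11b2 encodes the oxidase that inactivates corticosterone and so shields the mineralocorticoid receptor, and Hsd11b1 the reductase that regenerates it. Hsd11b2 read 5.58 at the lowest, 5.70 at the median and 5.79 at the highest in male knockouts, against 5.40, 5.72 and 5.90 in male controls (-0.01, adjusted p = 0.991). Female knockouts 1 to 5 read 5.95, 5.84, 5.56, 5.98 and 5.85, against 5.66, 5.72, 5.68, 5.71 and 5.62 in female controls 1 to 5. Of the female knockouts 4 lay above all female controls, and female knockout 3 below all of them (0.16, SE 0.08, adjusted p = 0.927). Hsd11b1 read between 4.01 and 4.32 over all arrays, below the median of its array on each of the 22, against a median of 3.19 for 23 background control probe sets. It was not tested for that reason, and its group means were 4.11 in male knockouts, 4.13 in male controls, 4.10 in female knockouts and 4.12 in female controls.

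Genes that act beside these enzymes were listed in 7 groups: steroid receptors, steroid synthesis, other hydroxysteroid enzymes, sterol side chain enzymes, steroid conjugation, relatives of the reductases, and steroid response. Of 82 listed genes 68 had a named probe set and 44 were tested, and 0 of the 44 were called in any comparison of knockouts with controls or in the male minus the female effect. An unadjusted p under 0.05 was reached by 2 of the 44 in males (Fkbp5 and Zbtb16, against 6.27% of all genes) and by 2 in females (Ch25h and Tecr, against 5.46%). It was reached by 0 on the average over the sexes (7.19% of all genes) and by 1 in the male minus the female effect (Fkbp5, against 4.04%). Calls came from the sexes, where the shares of all genes given above apply. None of 5 tested steroid synthesis genes, 2 conjugation enzymes and 4 relatives of the reductases was called there.

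Among the 6 tested receptors, Esr1 and Pgr were called lower in males than in females in knockouts, and Esr1 and Nr3c1 in controls. Esr1, the oestrogen receptor alpha, read 5.74 at the lowest, 5.79 at the median and 5.91 at the highest in male knockouts, against 6.58, 6.84, 6.51, 6.67 and 7.08 in female knockouts 1 to 5. In controls the 6 male arrays read 5.64, 5.85 and 5.95, against 6.56, 6.41, 6.59, 6.82 and 6.80 in female controls 1 to 5. No male array reached any female array, and the differences were -0.93 in knockouts (SE 0.09, adjusted p = 1.94e-07) and -0.83 in controls (SE 0.09, adjusted p = 1.12e-06). Pgr, the progesterone receptor, was lower in male than in female knockouts (-0.49, SE 0.12, adjusted p = 0.0122), a call lost without female knockout 2, and differed by -0.30 in controls (adjusted p = 0.168). Nr3c1, the glucocorticoid receptor, had a male minus female difference of -0.16 in controls (adjusted p = 0.0394), but this call was lost without any of 7 of the 11 control arrays and under 5 of the other settings. Esr2, the oestrogen receptor beta, and Nr3c2, the mineralocorticoid receptor, gave no call.

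Of 10 other hydroxysteroid enzymes, Akr1c13, an aldo-keto reductase, was lower in males in knockouts (-0.56, SE 0.13, adjusted p = 0.00739) and in controls (-0.45, SE 0.13, adjusted p = 0.0357). The call in controls was lost without any of 7 of the 11 control arrays and under 4 other settings. Of 8 sterol side chain enzymes Ch25h, the cholesterol hydroxylase that makes another oxysterol, was lower in male than in female knockouts (-0.45, SE 0.12, adjusted p = 0.0204). That call was lost when male knockout 3, female knockout 1 or female knockout 5 was left out. With all arrays it was also lost with quantile normalization (-0.43, adjusted p = 0.0607) and with the urothelium mean as a covariate (-0.41, adjusted p = 0.0635). In controls Ch25h differed by -0.11 (adjusted p = 0.674).

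Of the 9 tested steroid response genes, 4 were higher in males in both genotypes. Sgk1, a kinase induced by steroids, read 6.77 at the lowest, 7.41 at the median and 7.90 at the highest in male knockouts, against 6.13, 6.01, 6.04, 6.00 and 6.07 in female knockouts 1 to 5 (1.37, SE 0.14, adjusted p = 7.9e-07). Zbtb16, a zinc finger factor, differed by 1.05 in knockouts and 0.80 in controls, and Scnn1a, a subunit of the epithelial sodium channel, by 0.98 and 0.78. Fkbp5, a co-chaperone of steroid receptors, differed by 0.73 in knockouts (adjusted p = 1.11e-06) and 0.46 in controls (adjusted p = 0.000397), and Sgk1 by 1.20 in controls. Esr1 and these 4 genes kept their sex calls in both genotypes under every alternative that tested them. The 9 genes had a median sex difference of 0.34 in each genotype, against -0.01 over all genes, with 6 positive and 3 negative in knockouts and 5 positive and 4 negative in controls.

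**Figure D4:**
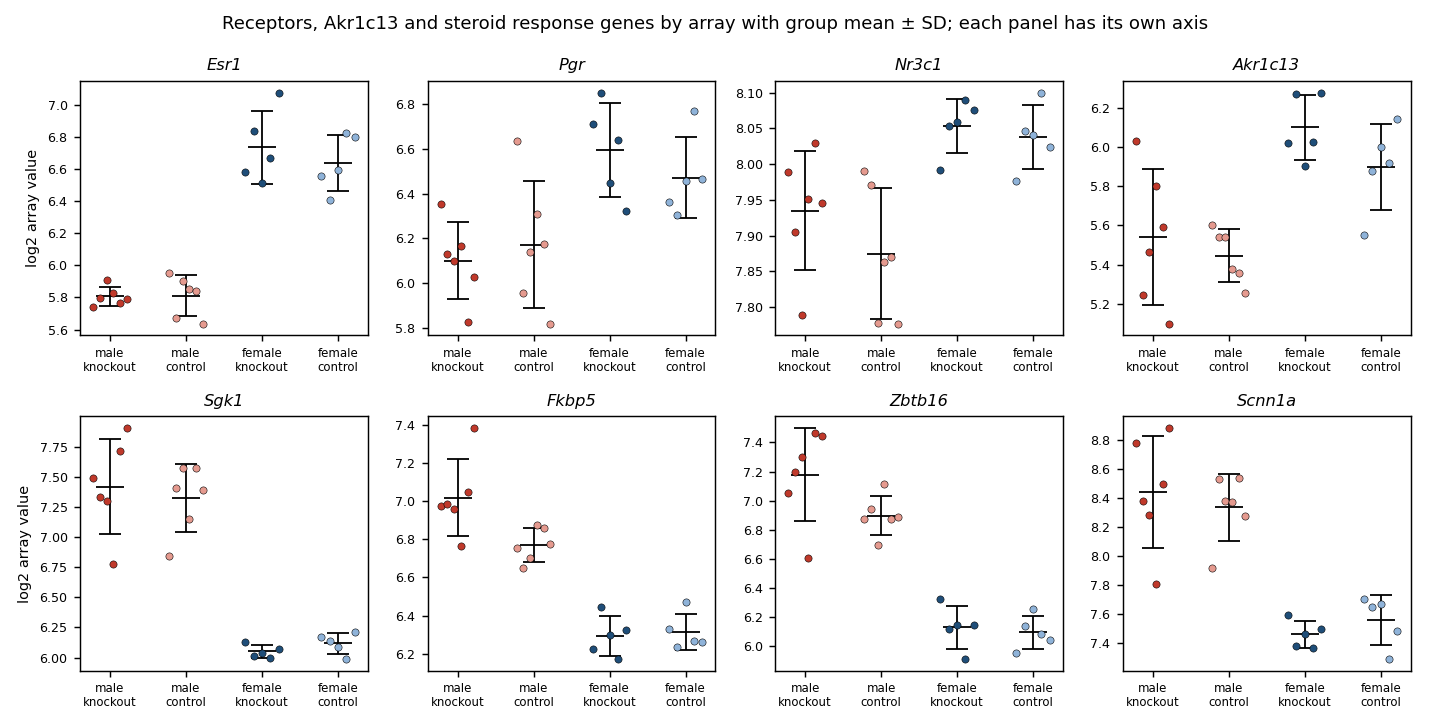
Log2 array values of 3 receptors, Akr1c13 and 4 steroid response genes on each array (points) with group mean ± SD (bars), one panel per gene with its own axis. Male arrays lie below female arrays for Esr1 and above them for Sgk1, Fkbp5, Zbtb16 and Scnn1a, and knockouts overlap with controls of the same sex in each of the 8 panels.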

How the data were processed

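Values are log2 array values that the authors deposited as a single table of 22 Affymetrix arrays, with 72688 probe sets each. That they are on the log2 scale was read from their range, 1.59 to 14.23. How background was corrected and arrays were normalized and summarized is not given in the sources used here. The values were used as they stand, with array medians of 5.10 to 5.27.

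Of the transcript clusters, 30439 had exactly 1 gene symbol in the platform's annotation (2146 probe sets had several), and 827 symbols were updated through gene identifiers. A gene was tested if its probe set exceeded the median of all transcript clusters on at least 5 arrays. The model in limma 3.58.1 (R 4.3.3, default eBayes) held 4 group means over the 22 arrays, with 18 residual and 4.34 prior degrees of freedom. It gave 6 comparisons: the knockout difference in each sex and averaged, the sex difference in each genotype, and the male minus the female knockout difference. P-values were adjusted over all genes in each comparison. Correlations with marker lists used deviations from group means and 100000 permutations within groups. No date, batch or litter was available, so the model has no covariate.

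The 10 genes and all lists were chosen with earlier results of these data known. Named genes are these 10, Sox9, Shh, 5 steroid receptors and the called genes of the 7 related lists. The genes most like Hsd17b2, the single urothelium markers, and Fkbp5, Zbtb16, Ch25h and Tecr by unadjusted p were named after their values were seen. Marker lists covered epithelium, mesenchyme, smooth muscle, urothelium, endothelium, blood, immune cells, neural crest with neurons, and Wolffian duct.

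Alternatives were quantile normalization, median centring, no filter, a filter at the 75th percentile, averaging a gene's probe sets, trend and robust eBayes, fitting only the groups compared, a replicate block, array weights, mesenchyme or urothelium covariates, and omission of each array. The urothelium covariate, the alternatives for the related genes and those for the correlation of Hsd17b2 were added after seeing the data. The programs were tested on simulated data. Promoter sequences are RefSeq's, on GRCm38.p6. Plots were made in Python 3.11.15 with matplotlib 3.10.9.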

Additional observations from a re-analysis of the deposited data

Results flagged for a closer look

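Nr3c2, the mineralocorticoid receptor, read 6.11 in female control 1, while the nearest of the other 4 female controls read 6.37, a gap of 0.819 of the whole range of the group. For Nr3c2, this sample lay far from the others of its group. No such sample was found for the 7 tested genes in any of their 28 groups. Over the related genes 11 of 176 groups had one, and chance gives about 1 in 20.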

How the results depend on the processing

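The calls for Cyp7b1 between the knockout sexes and for Cyp27a1 between the control sexes held under every alternative that tested them, although the filter at the 75th percentile left both genes out of the test. The number of the 7 genes called in male knockouts against controls was 1, and 0 with that filter and with only the male arrays, and it ran from 0 to 1 over the left-out arrays. For the average over the sexes it was 0, but 1 with the replicate block (Cyp27a1, adjusted p = 0.0341), and 0 to 1 over the left-out arrays, with Cyp27a1 called without male knockout 6 or male control 1. Between the knockout sexes it was 2, and 1 with no filter, the filter at the 75th percentile, only the knockout arrays, the replicate block (where Cyp27a1 was 0.36, adjusted p = 0.0753) and the urothelium covariate, and ran from 1 to 3 over the left-out arrays. Between the control sexes it was 1, 0 with the filter at the 75th percentile and 1 to 2 over the left-out arrays. The counts for female knockouts and for the male minus the female effect were 0 in every alternative run. For losses of calls other than through fewer genes or arrays, the cause was not tested.

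Signs turned in the following differences, none of them called. In males the knockout difference of Hsd11b2 was 0.012 with array weights and 0.0025 with the mesenchyme covariate, and -0.074 to 0.027 over the left-out arrays, and that of Hsd17b2 was -0.041 to 0.39. In females that of Srd5a3 was -0.00036 with quantile normalization, -0.023 with array weights, -0.035 with the urothelium covariate and -0.020 to 0.043 over the left-out arrays, and that of Hsd17b4 was -0.0088 to 0.067. Averaged over the sexes, Hsd17b4 was -0.0090 with quantile normalization, -0.012 with median centring, -0.020 with array weights, -0.0017 with the mesenchyme and -0.021 with the urothelium covariate, and -0.026 to 0.017 over the left-out arrays, and Cyp7b1 was -0.047 to 0.027. Between the control sexes, Hsd17b11 was -0.0024 with the replicate block, -0.0091 with array weights and -0.0091 to 0.041 over the left-out arrays, and Hsd11b2 was -0.0093 with array weights and -0.0048 to 0.095 over the left-out arrays. With the urothelium covariate Hsd17b2 was 0.30 between the knockout sexes, against -0.25 without it, and 0.011 for the male minus the female effect, against -0.43.

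Replicate numbers recur across groups, but the deviations of same-numbered arrays were at most weakly correlated (r from -0.212 to 0.253, with at most 1 pair over 0.1 in any 2 groups compared). Between male and female knockouts r was positive for all 5 pairs, from 0.0117 to 0.253. At most 1 array of a comparison correlated best with its own number, so the block was not the main analysis. Over all genes the block called 30 in males, against 38 without it. With the arrays of the compared groups alone 20 genes were called in males and 3 in females, against 38 and 6. Array weights called 72 on the average over the sexes and 11 in females, against 47 and 6, and median centring 3 in females. The male minus the female effect gave 0 to 2 called genes over these settings, against 1. Hsd11b1 lay below the array median on all 22 arrays, which limits what can be read from it.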
